A study of Mus musculus with 8 samples.

Results

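The enzymes described here make or remove reactive oxygen and nitrogen compounds, or use the arginine from which nitric oxide is made. The set lists 8 genes by name: the NADPH oxidases Nox1, Duox2 and Cybb, the inducible nitric oxide synthase Nos2, the arginase Arg2, the lactoperoxidase Lpo, and the glutathione peroxidases Gpx1 and Gpx2. A gene was measured where the RefSeq accession in a probe set's identifier maps to it, a probe set being the group of short array probes that reads one transcript. This gave 6 of the 8 genes with 1 probe set each, out of 14351 named genes on the array, while no probe set matched Nox1 or Duox2, which were not analysed here.

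The series measured total RNA from the colon of adult mice on Affymetrix expression arrays. There are 3 arrays titled WT, from female mice of wild type genotype, and 3 titled STAT5b-/-, from mice lacking STAT5b, a transcription factor that cytokine and growth hormone receptors activate. Of these, replicate 1 is male and the others female. A pair of arrays titled REF, from wild type females, was counted as 1 sample, because the values of both arrays matched to within a relative 2.47e-07, which is below sampling noise, so 7 samples were used. Strain, age beyond adult, the part of the gene that is mutated and whether replicates are separate animals are not given in the sources used here, so the spread behind each p-value may be technical rather than between animals. Each deposited value is a ratio, to the average of the WT arrays, with a lowest value of 0.01, and carries no level of one gene against another. Neither the levels of these genes nor the tissue label could therefore be checked against defining markers. Stat5b had ratios of 1.08, 0.930 and 0.993 in WT and 1.16, 1.17 and 1.26 in the arrays labelled STAT5b-/-, so its probe set did not measure it lower there, and every direction below rests on the labels.

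NADPH oxidases pass electrons from NADPH to oxygen and so form superoxide or hydrogen peroxide. Cybb is the catalytic subunit of the phagocyte enzyme and works with Cyba in the membrane and with Ncf1, Ncf4, Rac proteins and others from the cytosol, whereas Nox1 and Duox2 are the oxidases of the gut epithelium. Secreted lactoperoxidase uses hydrogen peroxide to oxidise thiocyanate into an antimicrobial product, and glutathione peroxidases reduce hydrogen peroxide to water. Nitric oxide synthases and arginases draw on the same substrate, arginine: Nos2 turns it into nitric oxide and citrulline, and the mitochondrial Arg2 turns it into ornithine and urea.

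In the arrays labelled STAT5b-/-, Arg2 was 29.3-fold higher, Lpo 49.7-fold lower, Cybb 2.17-fold lower and Gpx2 1.80-fold lower than in WT. The fold of Lpo is an uncertain estimate, with 1 STAT5b-/- array at the lowest deposited value. Nos2 and Gpx1 did not pass the test. The test was limma over all 14351 genes, with a threshold of 0.05 on the Benjamini-Hochberg adjusted p. Of the 6 genes, 1 was called higher and 3 lower, where 13.3% of all genes were called higher, 8.42% lower and 21.7% in either direction. In the same 4 genes the 3 WT and the 3 STAT5b-/- values did not overlap, as in 41.5% of all genes. With 6 genes, these counts describe the set only.

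**Figure D1:**
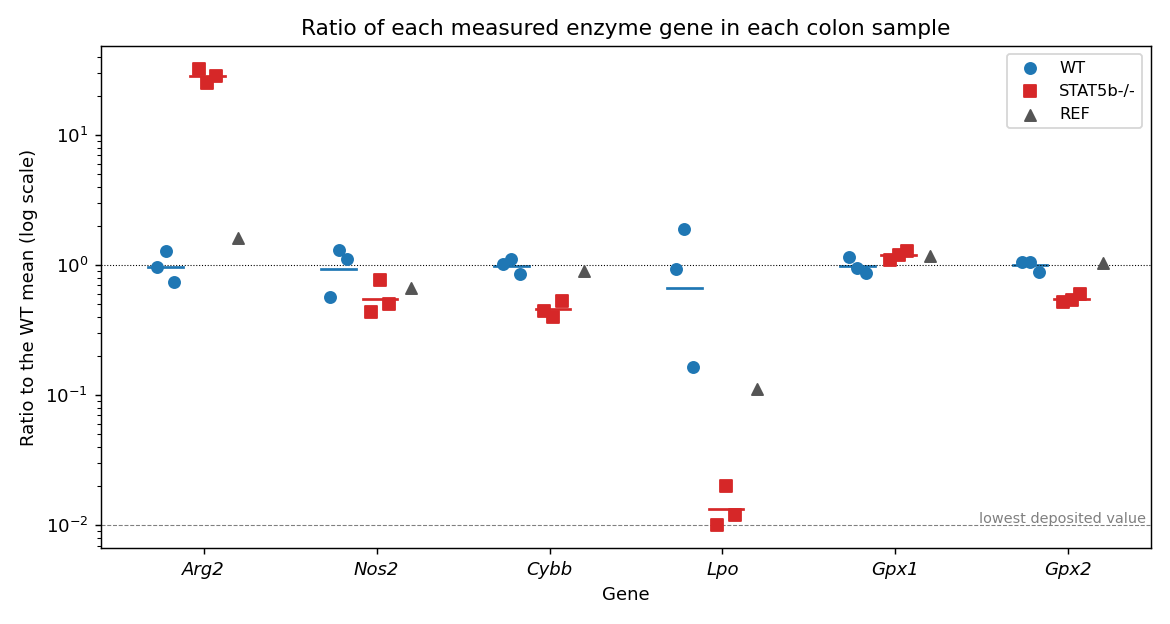
Ratio to the WT mean (log axis) of the 6 measured genes in each of the 7 samples: circles are WT, squares STAT5b-/-, triangles REF, horizontal bars the mean of the log2 values in a group of 3, and the dashed line is the lowest deposited value, 0.01. The 3 STAT5b-/- values of Arg2 lie between 25.1 and 32.4, those of Lpo at or near the lowest value, and those of Nos2 and Gpx1 overlap the WT values.

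Of the 6 measured genes, Arg2 was the only one called higher. Its ratios were 0.972, 1.29 and 0.737 in WT replicates 1, 2 and 3, and 32.4, 25.1 and 28.5 in STAT5b-/- replicates 1, 2 and 3. All 3 STAT5b-/- arrays were far above every WT array, and the STAT5b-/- mean was 28.7 ± 3.67 (SD, n = 3). The log2 fold change was 4.87 ± 0.22 (SE), with a 95% interval of 4.34 to 5.40 (limma, adjusted p = 8.83e-05). By size of change Arg2 ranked at place 28 of the 14351 genes. REF, with a ratio of 1.62, lay above the highest WT array but well under the lowest STAT5b-/- array. Between the arrays left out in turn the fold stayed between 25.4 and 33.7. Quantile normalization, which gives all arrays the same distribution, left a 7.04-fold rise that still passed (adjusted p = 0.00613).

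Nos2, which makes nitric oxide in epithelium and macrophages when cytokines induce it, did not pass. Its ratios were 0.566, 1.32 and 1.11 in WT, 0.434, 0.773 and 0.500 in STAT5b-/-, and 0.665 in REF. WT replicate 1 lay within the STAT5b-/- range, so the groups overlapped. The log2 fold change was -0.77 ± 0.36 (SE), with a 95% interval of -1.63 to 0.09 (adjusted p = 0.183), which holds both no change and a fall of about the size seen in Cybb. The call depends on that WT array: without WT replicate 1 the value was -1.14 and passed (adjusted p = 0.0390), while REF, a wild type sample, lay as low as the STAT5b-/- arrays.

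The difference between Arg2 and Nos2 within an array cancels any single scaling factor of that array. On the log2 scale it was 0.78, -0.03 and -0.60 in WT and 6.22, 5.02 and 5.83 in STAT5b-/-. The shift of 5.64 was seen in 3 of 3 STAT5b-/- arrays, with an exact two-sided permutation p of 0.1 (0.1 adjusted over the 2 pairs of genes compared), the smallest that 3 against 3 arrays allow. Arg2 alone changed by 4.87 and Nos2 by -0.77, so the separation of the groups here repeats that of Arg2 and does not test Nos2. REF stood at 1.28, above the WT arrays. Quantile normalization, which is not a single factor per array, reduced the shift to 3.40, an alternative chosen after seeing the data. These differences compare each gene with its own WT mean and say nothing of which enzyme was more abundant.

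Other genes of nitric oxide synthesis and arginine supply moved in both directions. Of 19 listed genes, all measured, 3 were called higher and 4 lower, or 36.8%, beside 21.7% of all genes. The median log2 change was -0.23, beside 0.007 over all genes. Nostrin, a trafficking partner of the endothelial synthase, rose by 0.92 ± 0.12 (SE) and Qdpr, which regenerates the cofactor tetrahydrobiopterin, by 1.21 ± 0.28. Spr, which completes the synthesis of that cofactor, rose by 0.61 ± 0.15. The amino acid transporter subunit Slc7a7 fell by 0.97 ± 0.19, the arginine importer Slc7a1 by 0.53 ± 0.13, Ddah1, which clears an inhibitor of the synthases, by 0.63 ± 0.15, and the nitric oxide receptor subunit Gucy1a1 by 0.58 ± 0.16. The other synthases did not pass: Nos1 stood at a log2 change of -0.31 ± 0.20 (adjusted p = 0.334) and Nos3 one of -0.56 ± 0.20 (adjusted p = 0.0914). The list's counts were 1 higher and 1 lower without WT replicate 3, STAT5b-/- replicate 1 or STAT5b-/- replicate 3, and 1 and 0 without STAT5b-/- replicate 2; of the 7 calls, that of Nostrin alone held in each of these 4 fits.

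A further list holds the arginases and enzymes that use arginine, ornithine or polyamines. Of 20 listed genes 13 were measured, of which 3 were called higher and 4 lower, or 53.8%, beside 21.7% of all genes. The median log2 change was -0.12. These values include Arg2, and of the 12 other measured genes 2 were called higher and 4 lower. The other arginase, the cytosolic Arg1, had ratios of 0.983, 1.04 and 0.975 in WT and 0.633, 0.710 and 0.600 in STAT5b-/-. It fell by 0.63 ± 0.12 (SE) on the log2 scale (adjusted p = 0.0127), and REF, at 1.15, did not share the fall. Azin1, which protects ornithine decarboxylase from antizyme, rose by 0.81 ± 0.12, and the mitochondrial ornithine carrier Slc25a15 by 0.63 ± 0.15. Spermidine synthase (Srm) fell by 0.98 ± 0.19, Aldh18a1, which makes the precursor of proline and ornithine, by 0.63 ± 0.13, and Gatm, which uses arginine for creatine synthesis, by 1.11 ± 0.32. Ornithine aminotransferase (Oat), which takes ornithine onward to proline or glutamate, stood at a log2 change of -0.15 ± 0.16 (adjusted p = 0.559). Without STAT5b-/- replicate 1, 2 or 3 the list held 2 higher and 2 lower, 3 and 1, and 2 and 1 calls. Arg1 lost its call without STAT5b-/- replicate 3, Srm without replicate 1 or 2, Aldh18a1 without replicate 2 or 3, Slc25a15 without replicate 1 or 3 or WT replicate 1 or 3, and Gatm in 9 of the 15 alternatives.

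Cybb had ratios of 1.03, 1.12 and 0.855 in WT and 0.444, 0.402 and 0.535 in STAT5b-/-. Each STAT5b-/- array was below each WT array, and REF, at 0.910, lay inside the WT range. The log2 fold change was -1.12 ± 0.17 (SE; adjusted p = 0.00480). It passed without any one array, with values from -1.23 to -1.03, and did not pass after quantile normalization (-0.85, adjusted p = 0.0665).

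Of the partners of Cybb, some passed the test and others did not. Of 16 listed genes of the NADPH oxidase complexes 10 were measured, of which 2 were called higher and 4 lower. That is 60% called, beside 21.7% of all genes, and the median log2 change was -0.46. These values include Cybb itself. Of the 9 other measured genes 2 were called higher and 3 lower, the latter including Duoxa2, a partner of Duox2. Ncf4 (p40phox, a regulatory subunit) had ratios of 1.11, 0.948 and 0.942 in WT and 0.413, 0.470 and 0.611 in STAT5b-/-. It fell by 1.02 ± 0.18 (SE) on the log2 scale (adjusted p = 0.00846), beside a log2 fold change of -1.12 for Cybb. The organizer Ncf1 (p47phox) stood at a log2 change of -0.31 ± 0.13 (adjusted p = 0.141), although its groups did not overlap, and Rac2, the Rac protein of blood cells, had one of -0.32 ± 0.19 (adjusted p = 0.303). Cyba, the membrane partner that Cybb shares with Nox1, went the other way, with ratios of 0.931, 1.25 and 0.822 in WT and 1.59, 2.22 and 2.19 in STAT5b-/-. It rose by 1.01 ± 0.21 (adjusted p = 0.0165), and Rac1, which also serves Nox1, by 0.52 ± 0.12 (adjusted p = 0.0243). Both lost the call without WT replicate 3, STAT5b-/- replicate 2 or STAT5b-/- replicate 3, which left 0 genes of the list called higher, and Rac1 also without STAT5b-/- replicate 1, while 3 or 4 genes remained called lower in every fit without 1 array.

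**Figure D2:**
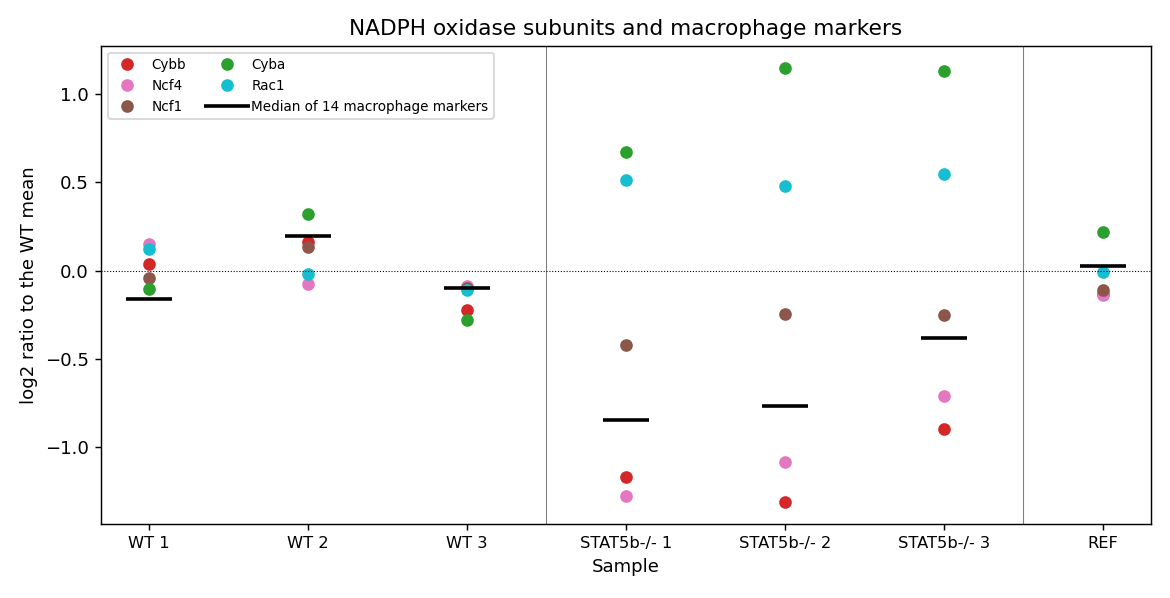
log2 ratio to the WT mean of 5 NADPH oxidase subunits in each sample (points), with the median of the 14 measured macrophage markers (black bars). In the STAT5b-/- arrays Cybb and Ncf4 lie below the marker median, Ncf1 above it and Cyba and Rac1 above the WT mean.

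Most of the macrophage markers that were called fell, as Cybb did. Of 14 measured markers 8 were called lower and 1 higher, beside 8.42% and 13.3% of all genes, and 5 did not pass. The median log2 ratio per array was -0.16 to 0.19 in WT, 0.03 in REF and -0.85 to -0.39 in STAT5b-/-. The mannose receptor Mrc1 fell by 1.92 ± 0.19 (SE), lysozyme Lyz2 by 1.33 ± 0.19 and Adgre1 (F4/80) by 1.93 ± 0.29, while Mertk rose by 0.91. Without STAT5b-/- replicate 1 or 2, 5 markers were called lower and 0 higher. Of 10 neutrophil markers 0 were called by limma (2 had an unadjusted p under 0.05), and in WT replicate 2 their median log2 ratio stood at 0.70 against -0.39 and -0.53 in the other WT arrays. In bulk tissue, fewer cells of a type and less RNA per cell cannot be told apart, and the part of macrophage content in the fall of Cybb was not tested.

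Of the epithelial oxidases, only partners were measured. Duoxa2, the maturation factor that carries Duox2 to the cell surface, had ratios of 0.767, 0.649 and 1.58 in WT, 0.311, 0.422 and 0.348 in STAT5b-/- and 0.663 in REF. The 3 STAT5b-/- values were the lowest, and the log2 fold change was -1.37 ± 0.34 (SE; adjusted p = 0.0288), but the call ended without any one of the STAT5b-/- arrays. For Noxo1, the organizer of Nox1, the change was -0.22 ± 0.21 on the log2 scale (adjusted p = 0.529). Duoxa2 and Duox2 lie head to head, 673 bases apart between their RefSeq start sites on opposite strands. The promoter window of Duoxa2 (250 bases before to 50 after the start, GRCm38.p6 chr2:122298650-122298949, plus strand, from RefSeq) is shown because it faces that of the unmeasured Duox2, with the TATAAA match 30 bases before the start in capitals.
Duoxa2: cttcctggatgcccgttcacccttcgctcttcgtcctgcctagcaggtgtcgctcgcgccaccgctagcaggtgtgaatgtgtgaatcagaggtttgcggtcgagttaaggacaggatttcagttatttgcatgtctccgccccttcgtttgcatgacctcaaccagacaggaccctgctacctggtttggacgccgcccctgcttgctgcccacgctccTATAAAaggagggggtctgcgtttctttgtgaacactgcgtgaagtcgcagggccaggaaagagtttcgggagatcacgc

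Genes for cytokines and receptors that can induce Nos2 or Duox2 showed no common direction. Of 26 listed 24 were measured, of which 4 were called higher and 3 lower. That is 29.2% called, beside 21.7% of all genes, and the median log2 change was 0.12. The interferon gamma receptor chains Ifngr1 and Ifngr2 rose by 0.74 ± 0.11 (SE) and 0.70 ± 0.17, and the interleukin 17 receptor chain Il17rc by 0.88 ± 0.19, while the cytokines Il13, Il4 and Il1b fell by 0.95 ± 0.18, 1.03 ± 0.26 and 0.64 ± 0.15. The fourth rise, in Tnfrsf1a, was of 0.43 ± 0.12. Interferon gamma itself (Ifng) stood at a log2 change of -0.34 ± 0.36 (adjusted p = 0.556). Only Ifngr1 kept its call without each array in turn. Leaving out STAT5b-/- replicates 1, 2 and 3 gave 2 higher and 0 lower, 1 and 0, and 1 and 2 calls, and leaving out WT replicates 1, 2 and 3 gave 2 and 2, 6 and 3, and 1 and 3.

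Lpo showed the largest fall of the set and also the largest spread among wild type samples. Its ratios were 0.939, 1.89 and 0.166 in WT and 0.01, 0.0201 and 0.0120 in STAT5b-/-, the first of these being the lowest deposited value. All STAT5b-/- arrays were below all WT arrays, but WT replicate 3 was itself low, and REF, at 0.111, was lower still than any WT array. The log2 fold change was -5.63 ± 0.84 (SE; adjusted p = 0.00482), with a 95% interval of -7.63 to -3.64. Because 1 STAT5b-/- array was at the lowest value, the fall may be understated on that side. The size of the fold also depends on the widely spread WT values. The fold was 99.5 without WT replicate 3 and 29.5 without WT replicate 2. It was 31.7 with REF as a further control, and values of 13.3 and 7.20 were left by a floor of 0.05 and by a pseudocount of 0.1. After quantile normalization it did not pass (log2 fold change -3.08, adjusted p = 0.310).

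The other heme peroxidases next to Lpo in the genome did not pass the test. Mpo, the peroxidase of neutrophils, and Epx, that of eosinophils, lie within 2 genes of Lpo in the order of protein-coding genes. Mpo had ratios of 0.628, 1.44 and 0.931 in WT and 0.574, 0.549 and 0.554 in STAT5b-/-, a log2 fold change of -0.76 ± 0.29 (SE; adjusted p = 0.109) with REF lowest at 0.493. Epx stood at -0.11 ± 0.32 (adjusted p = 0.844). Of 7 eosinophil markers 3 were called lower, beside 8.42% of all genes: Alox15 (log2 change -2.30), Ear2 (-1.69) and Ccr3 (-2.69). The median log2 ratio of all 7 was -0.55 in REF, -0.18 to 0.15 in the WT arrays and -1.71 to -1.01 in the STAT5b-/- arrays.

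The promoter windows of Lpo, the gene with the largest fall, and of the related pair Gpx1 and Gpx2 are given in RefSeq's sequence (GRCm38.p6), 5′ to 3′ on the strand of the gene. They lie at chr11:87826065-87826364 (minus strand), chr9:108338830-108339129 (plus strand) and chr12:76795505-76795804 (minus strand). Capitals mark matches, on either strand, to TTCNNNGAA (STAT), GGGNNNTTC (NF-kB), TGACNNNGC (NRF2, the regulator of antioxidant genes) and TATAAA, the core promoter element.
Lpo: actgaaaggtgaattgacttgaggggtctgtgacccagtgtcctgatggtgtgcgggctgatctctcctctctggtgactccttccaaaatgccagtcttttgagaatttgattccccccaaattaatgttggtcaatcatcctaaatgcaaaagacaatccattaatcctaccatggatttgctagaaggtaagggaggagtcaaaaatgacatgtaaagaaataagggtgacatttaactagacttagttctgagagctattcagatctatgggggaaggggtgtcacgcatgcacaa
Gpx1: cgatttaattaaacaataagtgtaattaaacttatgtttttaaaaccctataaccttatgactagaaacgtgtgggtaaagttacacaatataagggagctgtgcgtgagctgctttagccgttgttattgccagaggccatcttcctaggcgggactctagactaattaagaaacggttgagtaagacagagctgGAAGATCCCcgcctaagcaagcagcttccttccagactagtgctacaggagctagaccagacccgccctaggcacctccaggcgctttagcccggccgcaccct
Gpx2: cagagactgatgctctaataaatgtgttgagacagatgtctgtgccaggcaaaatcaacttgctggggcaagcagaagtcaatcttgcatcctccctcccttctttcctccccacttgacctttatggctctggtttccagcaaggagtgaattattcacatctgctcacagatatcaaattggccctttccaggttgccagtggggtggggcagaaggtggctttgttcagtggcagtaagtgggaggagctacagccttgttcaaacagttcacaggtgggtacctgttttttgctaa

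Of the 6 measured genes, 4 had a window (Cybb, Lpo, Gpx1 and Gpx2), and the only match was that of GGGNNNTTC in Gpx1, in capitals from 54 bases before the start. Over all 32851 windows of 300 bases, 8.30% held the STAT motif, 14% the NF-kB motif, 12.4% the NRF2 motif and 13.6% TATAAA. The windows also differed in composition: that of Gpx1 held 11 CpG dinucleotides and that of Gpx2 0, where the median window held 7. A match, or none, describes only these letters.

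Gpx2, the glutathione peroxidase of the gut epithelium, had ratios of 1.06, 1.06 and 0.881 in WT and 0.522, 0.541 and 0.597 in STAT5b-/-. The groups were well apart, with a spread of 0.103 (SD, n = 3) in WT and 0.0388 in STAT5b-/-, and REF, at 1.04, lay with WT. The log2 fold change was -0.85 ± 0.13 (SE; adjusted p = 0.00610). It passed without any one array (-0.94 to -0.81), and not after quantile normalization (-0.67, adjusted p = 0.106). Without STAT5b-/- replicate 1, which leaves females only, it was -0.81 (adjusted p = 0.0299), and Arg2 (4.78, adjusted p = 0.00219), Lpo (-5.42, adjusted p = 0.0294) and Cybb (-1.10, adjusted p = 0.0264) also passed.

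Gpx1, the glutathione peroxidase found in most cells, had ratios of 1.16, 0.958 and 0.877 in WT and 1.10, 1.20 and 1.29 in STAT5b-/-. WT replicate 1 lay within the STAT5b-/- values, and so did REF, at 1.19. The log2 fold change of 0.27 ± 0.15 (SE; adjusted p = 0.270) had a 95% interval of -0.09 to 0.62, which does not reach the fall of Gpx2. Within each array, Gpx2 minus Gpx1 was -0.14, 0.15 and 0.006 in WT and -1.07, -1.15 and -1.11 in STAT5b-/-, with REF at -0.18. The shift of -1.12 was seen in 3 of 3 STAT5b-/- arrays and far exceeded the spread of 0.142 (SD) in WT, with the smallest exact permutation p that the design allows, 0.1 (two-sided, 0.1 adjusted over both pairs).

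**Figure D3:**
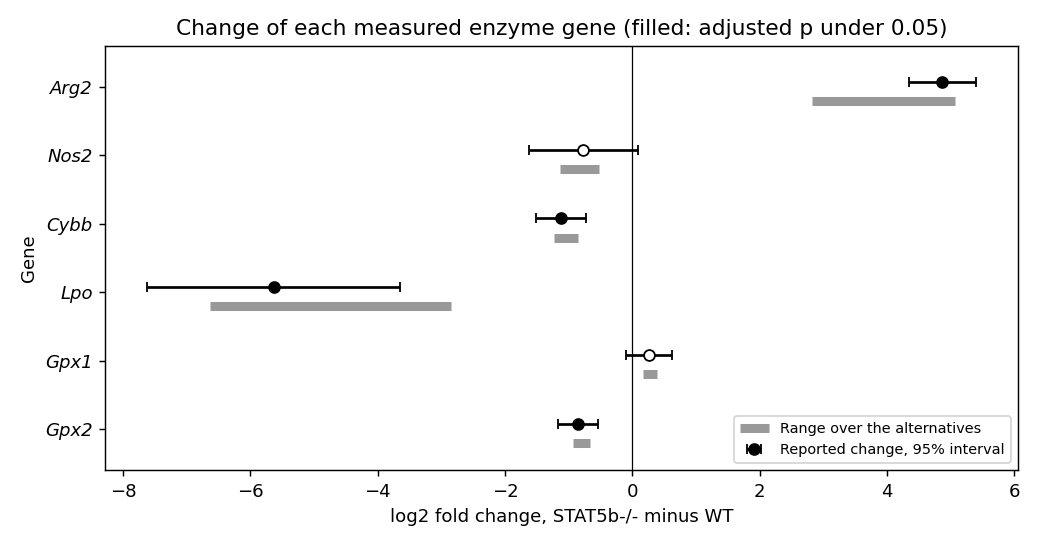
log2 fold change (STAT5b-/- minus WT) of the 6 measured genes with its 95% interval from limma (filled points passed the test), and the range over the alternative settings (grey bars). Arg2 lies at 4.87 and Lpo at -5.63 with the widest interval; the intervals of Nos2 and Gpx1 include 0.

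The remaining peroxide- and superoxide-removing enzymes were divided. Of 22 listed genes 21 were measured, of which 5 were called higher and 4 lower, or 42.9%, beside 21.7% of all genes. The median log2 change was -0.06. Prdx5, a mitochondrial and peroxisomal peroxiredoxin, rose by 1.07 ± 0.12 (SE), mitochondrial Prdx3 by 0.77 ± 0.12, Prdx6 by 1.12 ± 0.24 and the mitochondrial superoxide dismutase Sod2 by 0.55 ± 0.12. Catalase (Cat) rose by 0.59 ± 0.16, but its call ended without any one array. Prdx4, the peroxiredoxin of the endoplasmic reticulum, fell by 1.07 ± 0.12, and Gpx8, a glutathione peroxidase of the same compartment, by 0.85 ± 0.13, the other 2 falls being those of Lpo and Gpx2. The secreted Gpx3 stood at a log2 change of -0.43 ± 0.15 (adjusted p = 0.0797). Prdx6 and Sod2 lost their calls without WT replicate 3, STAT5b-/- replicate 2 or STAT5b-/- replicate 3, and the list then held 2 genes called higher, beside 4 or 5 called lower.

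Genes related to the supply of glutathione, thioredoxin and NADPH, many of them targets of NRF2, were mostly higher where called. The list also holds regulators, so its counts are not of supply genes alone. Of 24 listed 23 were measured, of which 12 were called higher and 1 lower, beside 13.3% and 8.42% of all genes, and the median log2 change was 0.68, beside 0.007. Nqo1, a quinone reductase, had ratios of 0.922, 0.821 and 1.26 in WT and 4.51, 2.94 and 3.83 in STAT5b-/-. Gclc, the catalytic subunit of the first enzyme of glutathione synthesis, had 1.08, 1.02 and 0.903 against 4.61, 2.78 and 3.31. These rises were of 1.91 ± 0.22 (SE) and 1.81 ± 0.20 on the log2 scale, that of sulfiredoxin (Srxn1) was of 1.36 ± 0.14 and that of G6pdx, which makes NADPH, of 1.11 ± 0.12. In REF these 4 genes had ratios of 1.04 to 1.15. The single fall was in the cystine importer Slc7a11, with ratios of 0.937, 1.15 and 0.915 in WT and 0.361, 0.221 and 0.301 in STAT5b-/-, a change of -1.79 ± 0.21. Heme oxygenase Hmox1, another NRF2 target, stood at a log2 change of -0.24 ± 0.15 (adjusted p = 0.323). Between 9 and 12 genes were called higher when 1 array was left out, 12 without the male array, and 1 after quantile normalization.

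**Figure D4:**
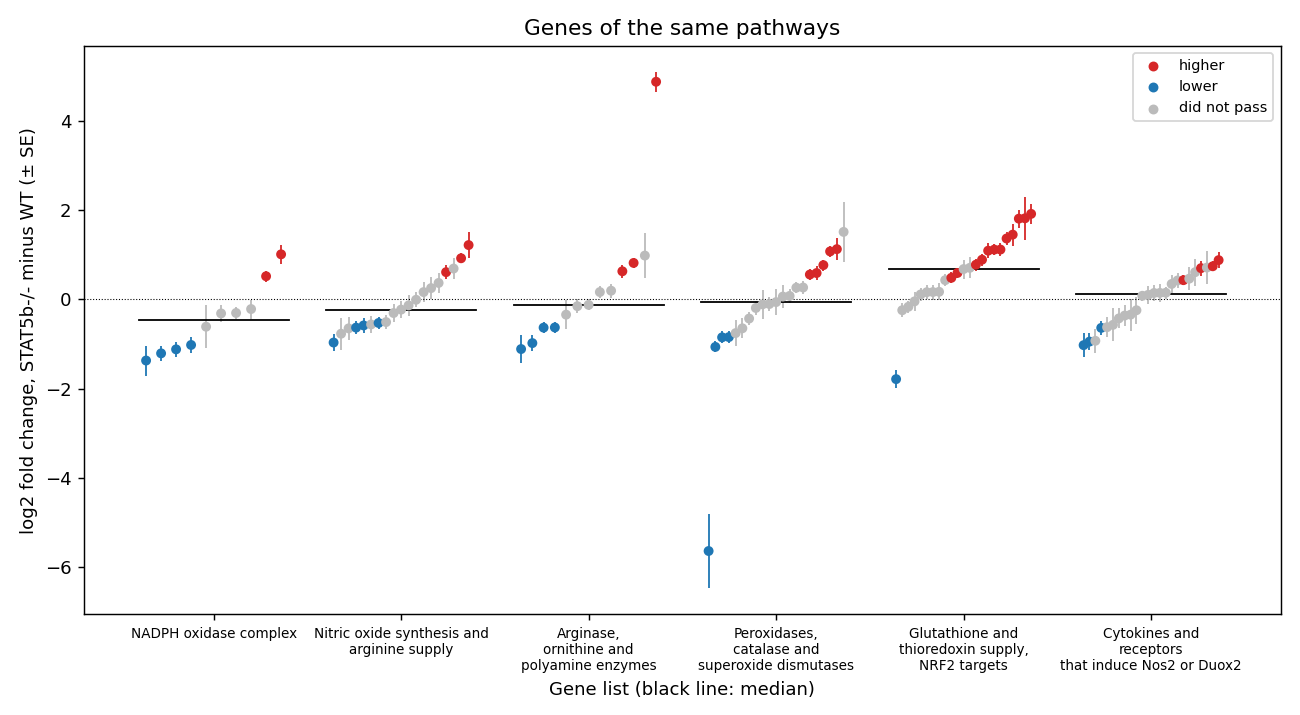
log2 fold change ± SE (STAT5b-/- minus WT) of each measured gene in 6 lists of related genes; red points were called higher, blue lower, grey did not pass, and the black line is the list's median. Arg2 at 4.87 and Lpo at -5.63 stand far from the other genes of their lists, and 12 of 23 genes in the glutathione and thioredoxin list are red.

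Markers of several other cells and of gut position moved with the groups as well. Their counts stand beside 13.3% of all genes called higher and 8.42% lower. Of 13 general epithelial markers 5 were called higher and 1 lower, with an array median of 0.34 to 0.45 in STAT5b-/- and -0.02 to 0.04 in WT, and without STAT5b-/- replicate 2 or 3 only 1 was called higher. Of 9 absorptive colonocyte markers 7 were higher (array medians 0.92 to 1.35 against -0.03 to 0.09), among them Tmigd1 by 2.79, Aqp8 by 1.45 and Slc20a1 by 1.72. Of 10 goblet cell markers 8 were lower (-1.80 to -1.51 against -0.05 to 0.09), among them Capn9 (log2 change -3.27), Spdef (-3.07) and Ern2 (-2.30). Of 8 genes of anterior gut position 7 were higher (1.40 to 1.80 against -0.11 to 0.11), including Hoxb8 by 3.69, Hoxb6 by 3.94 and Hoxb4 by 1.59. Of 9 posterior ones 3 were higher and 2 lower, with log2 changes of 3.12 for Hoxd9, 2.45 for Hoxd10 and -4.89 for Hoxb13. Fibroblast markers were lower in 9 of 10, and endothelial markers higher in 1 and lower in 1 of 10. Of 8 smooth muscle markers 0 were called by limma (0 at an unadjusted p under 0.05), and of 9 crypt base markers 1 was called higher and 3 lower. After quantile normalization 7 goblet cell markers were still called lower, and 0 absorptive colonocyte markers higher. The part of these shifts in the changes of Arg2, Lpo and Gpx2 was not tested.

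For each called gene the genes with the most similar pattern were found by the root mean square difference of log2 ratios over the 7 samples (log2 units). For Cybb they were Lcp1, an actin-bundling protein of leukocytes (0.07), and Lsr, a lipoprotein receptor of epithelium (0.08). Gpx2 was closest to Zfp948 (0.06), Egln3, an oxygen-sensing prolyl hydroxylase (0.07), and Gdpd1 (0.08). Arg2 had no close match: the hormone gene Nts lay at 0.43, Epop at 0.47 and Prap1 at 0.57. Lpo was nearest to Clps (1.03), Pnliprp2 (1.09) and Sval1 (1.29), at least a unit away on the log2 scale. Like Lpo, these genes stood at or near the lowest deposited value, 0.01, in the STAT5b-/- arrays. The part of that shared limit in the likeness was not tested.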

How the data were processed

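Colon RNA (100 ng per sample, amplified and labelled with biotin, per the labels' protocols) was measured on 8 arrays. The deposited values are ratios: the submitters' processing notes name RMA with no version, and the values themselves show that the authors divided each probe set by its mean over the WT arrays (to within 1.87e-07 of 1) and set a lowest value of 0.01. No source used here states the array model, and no intensities or detection calls were used.

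Of 26180 probe sets, 15228 matched 1 symbol of the RefSeq gene table (GRCm38.p6, used for names and gene order), 10952 none and 0 several. Ratios were converted to log2, probe sets of a gene averaged, and STAT5b-/- compared with WT with limma 3.58.1 (lmFit, eBayes) in R 4.3.3, two-sided, Benjamini-Hochberg adjusted over 14351 genes, with REF outside the fit. The number of arrays limits the precision. The genes and the 18 lists of companion and marker genes were chosen with earlier results of these data known. In each companion list, up to 4 called genes a direction with the smallest p are named, with a set of partner enzymes, and in marker lists up to 3, others being given as counts. Oat, Rac2, Ncf1, Hmox1, Ifng, Mertk, Txnrd2, Gpx7 and the neighbours of Gpx2 and Arg2 were named after their values were seen. Results of some genes that this rule names are not reported here. The planned difference between Nox1 and Cybb could not be computed, as no probe set matched Nox1. Among 15 alternatives were array scaling, a pseudocount of 0.1, a floor of 0.05, REF as control, the replicate number as a block and each array left out. The fit was tested on simulated data.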

Additional observations from a re-analysis of the deposited data

How the results depend on the processing

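Among the 15 alternatives (14 for Lpo, which leaving out genes at the deposited floor removes), every one of the 6 genes kept its direction, and Arg2 passed in all. Quantile normalization left 1 of the 6 genes called and 397 of all genes, against 4 and 3119 (39.8% of the calls higher, against 61.2%): Cybb stood at -0.85, Lpo at -3.08 and Gpx2 at -0.67. It gives all arrays the same spread, while the SD of log2 ratios was 0.646 to 0.737 in the STAT5b-/- arrays and 0.289 to 0.363 in WT. Division by the mean of the same WT arrays itself narrows WT. Quantile normalization of such ratios widens WT and narrows STAT5b-/-, so a call lost there cannot be told apart from that effect. In the 6 companion lists quantile normalization left 2 calls higher and 3 lower, against 29 and 20. Over the arrays left out in turn, the log2 change ran from -1.23 to -1.03 for Cybb, -1.14 to -0.53 for Nos2, 4.67 to 5.07 for Arg2, -6.64 to -4.88 for Lpo, 0.18 to 0.38 for Gpx1 and -0.94 to -0.81 for Gpx2. Calls over all genes numbered 1716 to 3551, and 4 or 5 of the 6 genes passed. Nos2 passed only without WT replicate 1 (-1.14). The neutrophil median of -0.37 turned to 0.11 without WT replicate 2, and ran from -0.58 to 0.11 over the arrays left out. Quantile normalization moved the within-array shift of Gpx2 minus Gpx1 from -1.12 to -0.83, an alternative chosen after seeing the data. With REF as a further WT sample, the shifts of Arg2 minus Nos2 and Gpx2 minus Gpx1 were 5.33 and -1.07 (exact permutation p = 0.0286, the smallest that 4 against 3 samples allow), but no source used here says what REF stands for or whether it is an animal separate from the WT ones. The replicate numbers share only a number: deviations of same-numbered arrays correlated at 0.04, -0.10 and -0.19. With the replicate block 2039 genes passed and the calls of the 6 genes did not change. Without detection calls, dim probe sets could not be set aside.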

Other observations

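Of the antioxidant enzymes listed, 4 that work in the mitochondrion, named together after their values were seen and with no test of the group, were called higher in the arrays labelled STAT5b-/-: Prdx3 by 0.77, Prdx5 by 1.07, Sod2 by 0.55 and thioredoxin Txn2 by 0.59 on the log2 scale. The mitochondrial thioredoxin reductase Txnrd2 stood at 0.17 ± 0.19 (SE) and did not pass (adjusted p = 0.596). Of the enzymes of the endoplasmic reticulum, Prdx4 and Gpx8 fell by 1.07 and 0.85, and Gpx7 stood at -0.19 ± 0.16 (adjusted p = 0.467). Txn2 lost its call without STAT5b-/- replicate 2, and Sod2 without WT replicate 3 or STAT5b-/- replicate 2 or 3.

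Rab15, a vesicle traffic gene that follows Gpx2 in the order of protein-coding genes, also fell, by 1.90 ± 0.15 (limma, adjusted p = 0.00059). Of the other measured genes within 3 places of Gpx2, Plekhg3 rose by 0.54 ± 0.14 (adjusted p = 0.0370) and Max by 0.69 ± 0.14 (adjusted p = 0.0133), and Sptb and Fntb did not pass. Of the genes on either side of Arg2, Pigh rose by 0.68 ± 0.14 (adjusted p = 0.0146) and Vti1b by 0.51 ± 0.14 (adjusted p = 0.0407). The other measured genes within 3 places of Arg2, Tmem229b, Rdh11 and Rdh12, did not pass.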
